A study of Arabidopsis thaliana with 24 samples.

Results

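Arabidopsis thaliana leaves were profiled for the genes of the glutathione and thioredoxin systems, chosen by gene symbol as those beginning with GST, TRX, GPX, APX, DHAR, MDAR, PRX or GRX, with or without an AT prefix, and the symbols GR1 and GR, with the SA-induced glutaredoxin gene GRX480 left out. The rule found 24 probe sets, each for a different gene, among 22746 probe sets tested, and it used no measured value. Of these, 23 match in capitals and 1, Prx37, is written in mixed case. They are 14 glutathione S-transferase (GST) genes, 2 glutathione reductase genes, 2 glutaredoxin genes, 1 thioredoxin, 1 monodehydroascorbate reductase and 1 peroxiredoxin gene, and 3 genes of class III peroxidases. The last 3 share the PRX prefix but encode secreted haem peroxidases, which do not draw on glutathione or thioredoxin, and counts without them are given in the closing section. No probe set with a single symbol beginning with GPX, APX or DHAR was found.

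Glutathione is a small thiol that plant cells keep mostly reduced. It is oxidised when dehydroascorbate or peroxides are reduced, glutathione reductases restore it with NADPH, and GSTs join it to reactive or foreign compounds. Thioredoxins and glutaredoxins reduce disulfides on proteins, and in chloroplasts the f-type thioredoxins pass electrons from photosynthesis to the enzymes of carbon fixation. Salicylic acid (SA), an immune hormone, shifts the cellular redox state, and this state governs the SA co-activator NPR1.

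The plants were wild type, 23 days old, soil-grown with a 12 h day, and kept in constant light for the 24 h before treatment and afterwards. Either water or SA at 1 mM was given at 1 of 2 zeitgeber times, ZT24 and ZT36, and the labels place the harvest of true leaves at 0 h or 3 h afterwards. This gives 8 groups of 3 Affymetrix arrays, described as biological replicates, with 24 arrays in all. The labels do not say whether the samples of a group came from separate plants or pools. The p values therefore rest on the spread between these samples, and precision is limited by the array number. Values are on the log2 scale and centred, so that 0 is the 24-array median of the probe set, and levels cannot be compared between genes and the leaf identity cannot be checked from levels. Differences are on the log2 scale with their standard error (SE) from limma. That SE rests on 1 moderated spread per gene over all 8 groups of 3 arrays, and not on the compared arrays alone. The p values carry Benjamini-Hochberg adjustment over the 22746 probe sets, with calls at 0.05.

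The arrays labelled SA 0 h stood apart from the water arrays. Arrays labelled water 3 h differed from water 0 h at 0% of probe sets after ZT24 and 0.00879% after ZT36, while arrays labelled SA 0 h differed from water 0 h at 16.2% and 29%. UGT76B1, an SA glucosyltransferase gene that stood 8.18 ± 0.13 and 8.66 ± 0.13 above water 3 h in the SA 3 h arrays, differed by 0.14 ± 0.13 and -0.12 ± 0.13 in the SA 0 h arrays, neither of which passed. It is 1 of 3 genes with a named probe set among 25 listed for SA signalling and response, with WRKY53 and SAG101. All 3 were higher in the SA 3 h arrays at both times. The SA 3 h arrays are therefore compared with both the water 3 h and the SA 0 h arrays, and the 2 comparisons share the SA 3 h arrays. In whole leaves, fewer cells of a type and less RNA per cell cannot be told apart.

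The group means of the 24 genes spread over a median range of 0.70 on the log2 scale, against 0.57 over all probe sets. GSTU20 had the widest range (2.39), followed by GR1 (2.26), GSTU18 (2.03), TRXF2 (1.96) and GR (1.80), and ATGSTF13 the narrowest (0.12). A total of 6 genes, ATGSTF13, GSTF4, GSTU15, GSTU22, GSTU25 and Prx37, passed the test in 0 of 15 comparisons, and 18 passed in at least 1, where 70.6% of all probe sets passed in at least 1. Of the 6, GSTF4, GSTU22, GSTU25 and Prx37 were called in some comparison under at least 1 alternative setting or with 1 array left out, and ATGSTF13 and GSTU15 under none of those run.

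**Figure D1:**
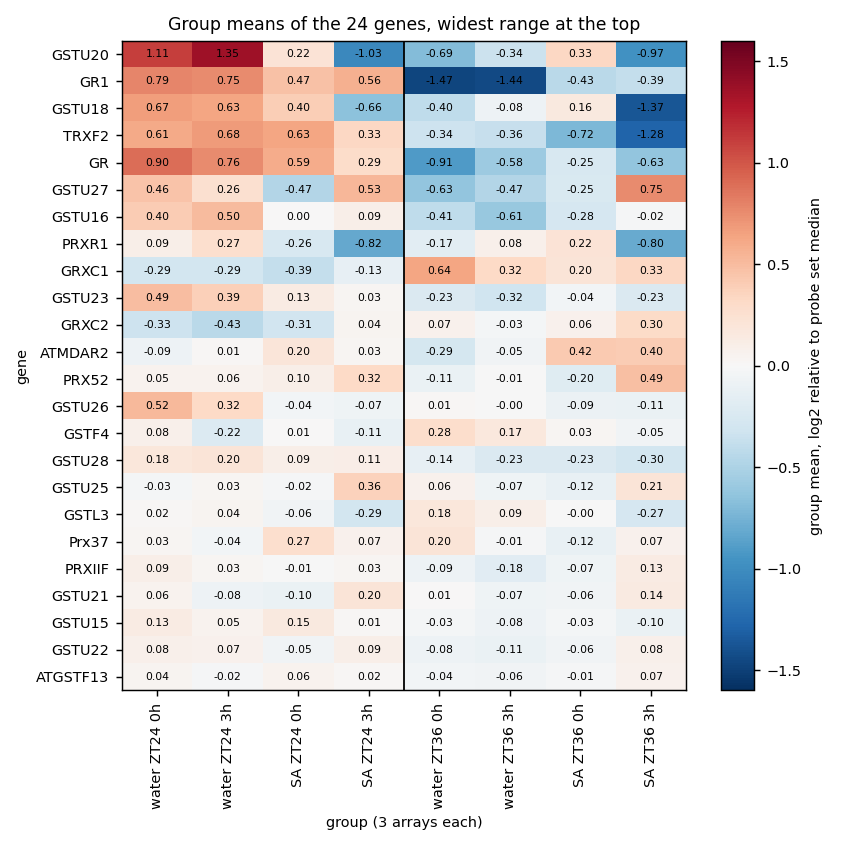
Group means of the 24 genes (rows) in the 8 groups (columns, 3 arrays each), as centred log2 expression, with the gene of widest range at the top. GR1 ran from 0.79 in water ZT24 0 h to -1.47 in water ZT36 0 h, while ATGSTF13 stayed within 0.12.

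The first comparison was of the times of treatment in water, which shows how these genes differ between ZT24 and ZT36 without SA. The labels give 24 h of constant light for both times, so time of day and light history cannot be told apart here. Both glutathione reductase genes, the chloroplast thioredoxin gene TRXF2 and 7 GST genes were higher at ZT24 than at ZT36 in water at 0 h, and both glutaredoxin genes were lower. In all, 10 of 24 were higher, where 18.7% of all probe sets were, and 2 of 24 lower, where 22.2% were, so that 12 of 24 were called against 40.9% of all probe sets. The median difference was 0.19 over the 24 genes and 0.015 over all probe sets.

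GR1 (AT3G24170), which encodes the cytosolic glutathione reductase, stood at 0.73, 0.83 and 0.80 in the 3 water arrays of ZT24 at 0 h and at -1.26, -1.67 and -1.48 in those of ZT36. The 3 h arrays gave 0.71, 0.78 and 0.76 at ZT24 and -1.31, -1.38 and -1.62 at ZT36. All 6 arrays of ZT24 lay above all 6 of ZT36, and the 0 h difference was 2.26 ± 0.10, a 4.78-fold difference (adjusted p = 4.0e-13). The 3 h difference was 2.19 ± 0.10 (adjusted p = 7.5e-13). GR (AT3G54660), for the enzyme of chloroplasts and mitochondria, stood at 0.96, 0.93 and 0.80 at ZT24 and -0.54, -0.94 and -1.24 at ZT36 at 0 h. The groups did not overlap, with differences of 1.80 ± 0.14 at 0 h (adjusted p = 1.3e-09) and 1.34 ± 0.14 at 3 h (adjusted p = 1.2e-07). TRXF2 (AT5G16400), a thioredoxin of the f type, stood at 0.69, 0.46 and 0.67 at ZT24 and -0.27, -0.25 and -0.49 at ZT36. It was higher at ZT24 by 0.94 ± 0.13 at 0 h (adjusted p = 2.9e-06) and 1.04 ± 0.13 at 3 h (adjusted p = 1.1e-06).

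**Figure D2:**
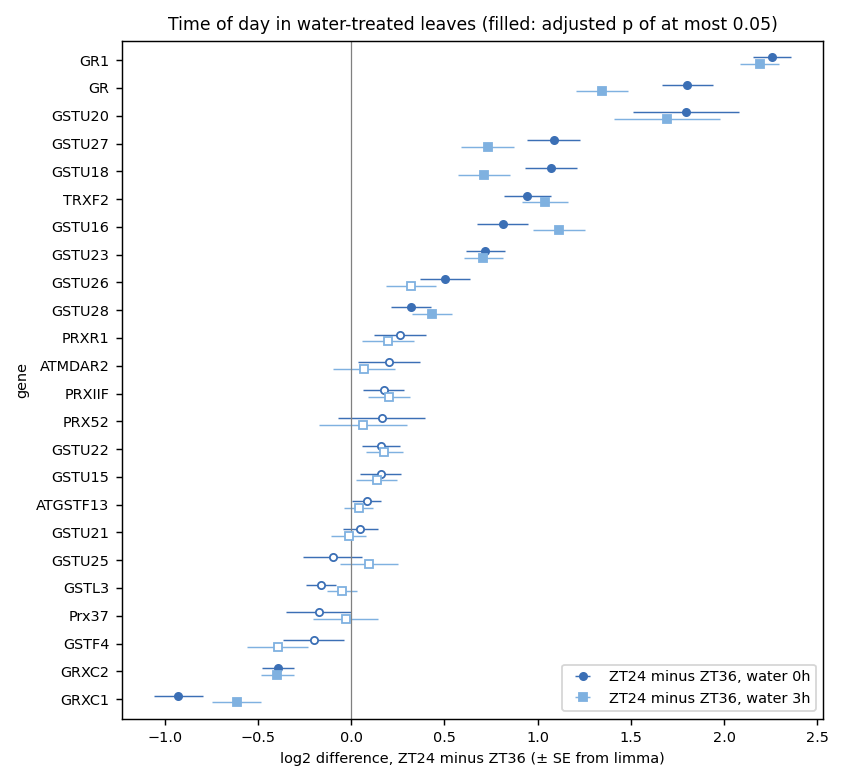
Difference between ZT24 and ZT36 in water-treated leaves for each of the 24 genes (log2, ± SE from limma, 3 arrays per group), in the 0 h arrays (circles) and the 3 h arrays (squares), with filled symbols for an adjusted p of at most 0.05. GR1 lies farthest to the right at 2.26 and 2.19, and GRXC1 farthest to the left at -0.93 and -0.61.

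The glutaredoxin genes GRXC1 (AT5G63030) and GRXC2 (AT5G40370), which encode cytosolic enzymes that reduce disulfides with glutathione, went the other way. GRXC1 stood at -0.45, -0.13 and -0.28 at ZT24 and 0.35, 0.78 and 0.78 at ZT36 in water 0 h. The groups did not overlap, and the differences were -0.93 ± 0.13 at 0 h (adjusted p = 7.1e-06) and -0.61 ± 0.13 at 3 h (adjusted p = 0.00083). GRXC2 differed by -0.39 ± 0.09 and -0.40 ± 0.09 (adjusted p = 0.00097 and 0.0011), also without overlap.

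Among the GST genes at 0 h, 7 of 14 were higher at ZT24, 0 lower and 7 not called. The 7 are all of the tau class, a plant class of GSTs, to which 11 of the 14 belong. GSTU20 (AT1G78370), whose product is known to interact with the jasmonate-conjugating enzyme FIN219, stood at 1.29, 1.14 and 0.88 at ZT24 and 0.03, -1.22 and -0.88 at ZT36, a difference of 1.79 ± 0.28 (adjusted p = 2.6e-05). Its 3 arrays of ZT36 spread widely, with replicate 1 highest, and all lay below those of ZT24. GSTU27 (AT3G43800) was higher by 1.09 ± 0.14, GSTU18 (AT1G10360) by 1.07 ± 0.14, GSTU16 (AT1G59700) by 0.81 ± 0.14 and GSTU23 (AT1G78320) by 0.72 ± 0.11, with adjusted p between 2.3e-06 and 6.4e-05. GSTU26 was higher by 0.50 ± 0.13 (adjusted p = 0.0045) and GSTU28 by 0.32 ± 0.11 (adjusted p = 0.021). The GSTU28 call was lost without replicate 2 (0.16) of water ZT24 0h or replicate 1 (0.17) of water ZT36 0h, and in a fit of the compared arrays alone (0.14), with the adjusted p in parentheses.

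In the 3 h arrays of water, 9 of 24 genes were higher at ZT24 and 2 lower, where 16.8% and 21.2% of all probe sets were (38.1% in all). The 2 groups of arrays did not overlap for 16 of 24 genes at 0 h and 13 at 3 h, against 49.3% and 51.6% of all probe sets. All 11 genes called at 3 h had been called with the same sign at 0 h, in arrays that the 3 h comparison does not share, which is 11 of 12 calls at 0 h. Over all probe sets, 80.3% of those called at 3 h had been called with the same sign at 0 h, and 74.7% of those called at 0 h were at 3 h. The exception was GSTU26, at 0.32 ± 0.13 in the 3 h arrays (adjusted p = 0.067). The differences at 3 h were 1.69 ± 0.28 for GSTU20, 1.11 ± 0.14 for GSTU16, 0.73 ± 0.14 for GSTU27, 0.71 ± 0.14 for GSTU18, 0.71 ± 0.11 for GSTU23 and 0.43 ± 0.11 for GSTU28. Between water 3 h and water 0 h, 0 of 24 genes passed limma's test after either time, with 0 and 3 at an unadjusted p under 0.05. Their groups did not overlap for 3 and 4 of 24 genes, with 10.1% and 16.2% over all probe sets. GR1 differed by -0.03 ± 0.10 after ZT24 and 0.03 ± 0.10 after ZT36. GR differed by 0.32 ± 0.14 after ZT36 (adjusted p = 0.32), a difference called without water ZT36 0h replicate 1 (0.50, adjusted p = 0.039) and with array weights (0.44, adjusted p = 0.034).

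GSTU20, GSTU21, GSTU22 and GSTU23 are neighbours on chromosome 1, with 0 protein-coding genes between each and the next in the RefSeq annotation. GSTU20 and GSTU23 were called between the times in water, while GSTU22 (AT1G78340) differed by 0.16 ± 0.10 and GSTU21 (AT1G78360) by 0.05 ± 0.09 at 0 h, neither of which passed. GSTU25 (AT1G17180) and GSTU26 (AT1G17190) are also adjacent, and GSTU25 differed by -0.10 ± 0.16. GSTU15 (AT1G59670) and GSTU16 have 3 genes between them, and GSTU15 differed by 0.16 ± 0.11. Transcripts of near relatives can bind the same probes, so differences within these clusters carry that limit. GSTF4 and ATGSTF13, of the phi class, and GSTL3, of the lambda class, differed by -0.20, 0.08 and -0.16, none of which passed.

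The remaining genes did not pass between the times in water. ATMDAR2 (AT5G03630), a monodehydroascorbate reductase that regenerates ascorbate, differed by 0.20 ± 0.17 at 0 h. The mitochondrial peroxiredoxin gene PRXIIF (AT3G06050) differed by 0.17 ± 0.11. The class III peroxidase genes PRXR1, PRX52 and Prx37 differed by 0.26, 0.16 and -0.17.

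Genes with related roles that the symbol rule does not take were listed separately, and 9 of 56 listed redox partners had a named probe set. Of these 9, 4 were higher at ZT24 in water 0 h and 0 lower, where 18.7% and 22.2% of all probe sets were. Their median was 0.32, against 0.015 over all probe sets. MSRB6, a methionine sulfoxide reductase, was higher by 2.19 ± 0.22, VTC4, of ascorbate synthesis, by 1.80 ± 0.12, MSRB5 by 1.71 ± 0.24 and NTRC, the chloroplast thioredoxin reductase, by 1.13 ± 0.09. Of 8 thioredoxins and ascorbate peroxidases filed under other symbols, 4 were higher and 1 lower, beside the same 18.7% and 22.2% of all probe sets. The y-type thioredoxin gene ty2 was higher by 0.94 ± 0.12, TAPX by 0.66 ± 0.15 and the x-type thioredoxin gene THX by 0.61 ± 0.08, while ATHM2 was lower, at -0.24 ± 0.07. The stromal ascorbate peroxidase SAPX stood at 0.91 ± 0.51 and did not pass (adjusted p = 0.17). Leaf markers moved with this comparison, and 3 of 10 listed had a named probe set. RCA was higher at ZT24 by 0.54 ± 0.08 and LHCB4.2 by 0.45 ± 0.12, while LHCB4.1 differed by 0.01 ± 0.08. The touch and wound marker STZ was lower at ZT24 in water 0 h, at -0.68 ± 0.24, and higher in water 3 h, by 1.30 ± 0.24. The guard cell marker FMA differed by -0.16 ± 0.11 at 0 h, which did not pass, and was lower at 3 h, at -0.33 ± 0.11. The part of these markers in the result was not tested.

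**Figure D3:**
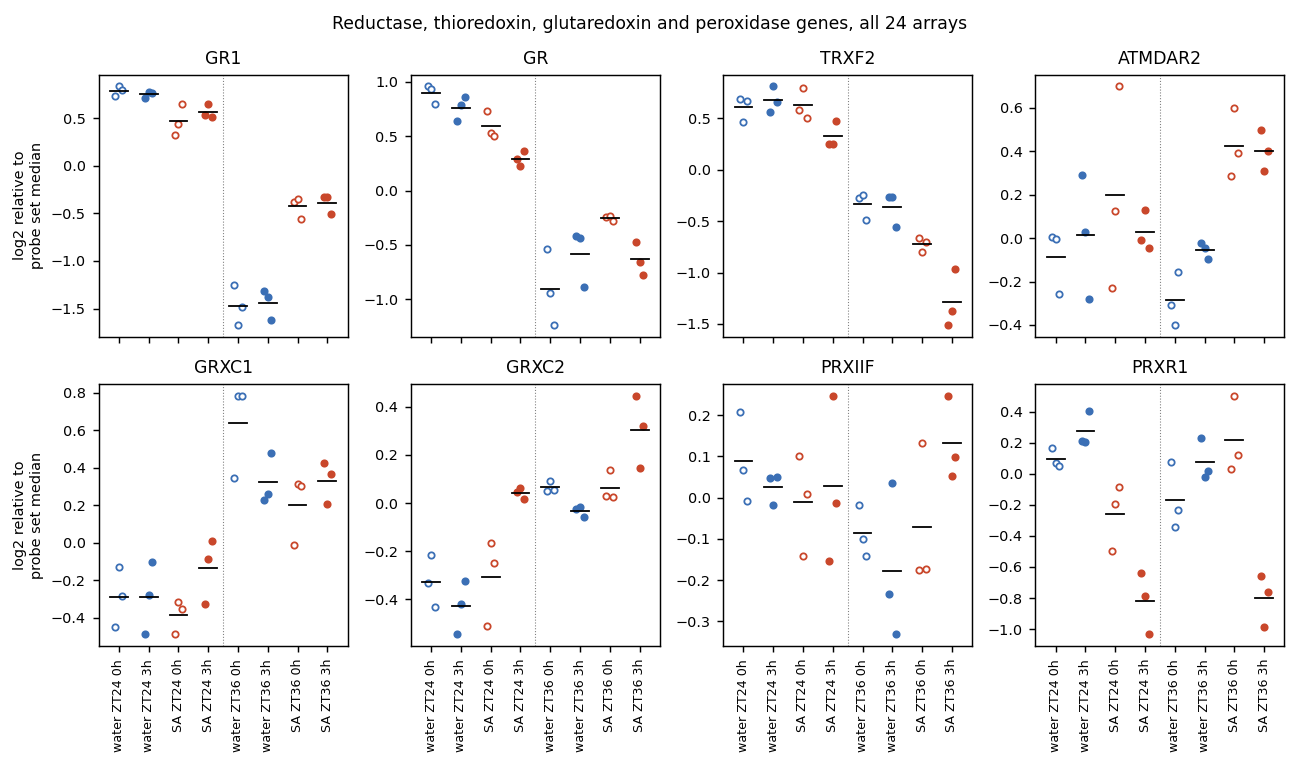
Centred log2 expression of 8 genes in all 24 arrays, by group. Points are arrays (blue water, red SA, open 0 h, filled 3 h), bars are means of 3, and the dotted line parts ZT24 from ZT36. The water ZT36 arrays of GR1 lie between -1.67 and -1.26, below all others, and the SA ZT36 3 h arrays of TRXF2 lie between -1.51 and -0.96.

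The next comparison was of SA with water at 3 h after treatment at ZT24. Against water 3 h, 9 genes were lower and 2 higher. The lower genes were led by GSTU20, GSTU18 and PRXR1, and the higher were GRXC2 and GSTU21. That is 9 of 24 lower where 20.5% of all probe sets were, and 2 of 24 higher where 17.7% were (38.1% in all), with a median of -0.02 over the 24 genes and -0.026 over all probe sets. Of the lower genes, GSTU20, GSTU26 and GSTU23 were already called lower in the SA 0 h arrays against water 0 h, at -0.88, -0.56 and -0.36.

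GSTU20 stood at -0.64, -0.84 and -1.62 in the SA 3 h arrays, 1.63, 0.99 and 1.44 in water 3 h and -0.03, 0.61 and 0.08 in the arrays labelled SA 0 h. The SA 3 h arrays were below both, with differences of -2.39 ± 0.28 against water 3 h (adjusted p = 7.4e-07) and -1.26 ± 0.28 against SA 0 h (adjusted p = 0.0015). GSTU18 stood at -0.93, -0.37 and -0.67 in SA 3 h, 0.52, 0.68 and 0.71 in water 3 h and 0.41, 0.47 and 0.31 in SA 0 h. It fell, with a difference of -1.29 ± 0.14 against water and -1.05 ± 0.14 against SA 0 h (adjusted p = 2.0e-07 and 4.1e-06). PRXR1 (AT4G21960) stood at -0.64, -0.79 and -1.03 in SA 3 h, 0.21, 0.20 and 0.41 in water 3 h and -0.50, -0.20 and -0.08 in SA 0 h. It was lower, at -1.09 ± 0.14 (adjusted p = 1.7e-06) and -0.56 ± 0.14 (adjusted p = 0.0031), and the second call was lost after quantile normalization (-0.33, adjusted p = 0.13).

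The other lower differences against water 3 h lay between -0.33 and -0.47. GR was lower, at -0.47 ± 0.14 (adjusted p = 0.0099), with -0.30 ± 0.14 against SA 0 h (adjusted p = 0.12), a difference called after quantile normalization (-0.57, adjusted p = 0.00042). GSTL3 (AT5G02790) was lower, at -0.33 ± 0.08 against water and -0.24 ± 0.08 against SA 0 h (adjusted p = 0.0017 and 0.025). The GSTL3 call against SA 0 h was lost without replicate 1 (0.057) or 2 (0.12) of SA ZT24 0h or replicate 1 (0.089) or 2 (0.12) of SA ZT24 3h, and after quantile normalization (0.26) or with array weights (0.085) or in a fit of the compared arrays alone (0.17). Against water, GSTU16 was lower, at -0.41 ± 0.14, GSTU26 at -0.39 ± 0.13, GSTU23 at -0.36 ± 0.11 and TRXF2 at -0.35 ± 0.13, and the values against SA 0 h were 0.09, -0.03, -0.10 and -0.30, none of which passed. These 4 calls depended on which arrays were in the fit. The GSTU16 call against water was lost without replicate 1 (0.075) or 3 (0.054) of SA ZT24 3h or replicate 2 (0.069) or 3 (0.10) of water ZT24 3h. The GSTU26 call against water was lost without replicate 2 (0.058) or 3 (0.10) of SA ZT24 3h or replicate 3 (0.15) of water ZT24 3h, and in a fit of the compared arrays alone (0.052). The GSTU23 call against water was lost without replicate 3 (0.070) of SA ZT24 3h or replicate 2 (0.069) of water ZT24 3h. The TRXF2 call against water was lost without replicate 1 (0.11) or 2 (0.097) of SA ZT24 3h or replicate 2 (0.14) or 3 (0.060) of water ZT24 3h. After quantile normalization TRXF2 stood at -0.54 against water and was called against SA 0 h (-0.58, adjusted p = 0.00042).

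GRXC2 rose from -0.54, -0.42 and -0.32 in water 3 h to 0.05, 0.06 and 0.02 in SA 3 h, and stood at -0.51, -0.17 and -0.25 in SA 0 h. The rise was 0.47 ± 0.09 against water (adjusted p = 0.00016) and 0.35 ± 0.09 against SA 0 h (adjusted p = 0.0034), where a fit of the compared arrays alone lost the call (0.051). GSTU21 rose by 0.29 ± 0.09 and 0.31 ± 0.09, with SA ZT24 3h replicate 1 highest at 0.41. The GSTU21 call against water was lost without replicate 1 (0.15) of SA ZT24 3h or replicate 2 (0.093) of water ZT24 3h, and in a fit of the compared arrays alone (0.096). The GSTU21 call against SA 0 h was lost without replicate 2 (0.065) of SA ZT24 0h or replicate 1 (0.12) of SA ZT24 3h, and in a fit of the compared arrays alone (0.093). GSTU27 stood at 0.27 ± 0.14 against water 3 h (adjusted p = 0.15) and rose by 1.00 ± 0.14 against SA 0 h (adjusted p = 1.0e-05). GRXC1 differed by 0.25 ± 0.13 against SA 0 h, a difference called after quantile normalization (0.42, adjusted p = 0.013). GR1 differed by -0.19 ± 0.10 against water (adjusted p = 0.18), a difference called after quantile normalization (-0.44, adjusted p = 0.0026), and by 0.10 ± 0.10 against SA 0 h (adjusted p = 0.55). With SA 0 h as control, 4 of 24 genes were lower and 3 higher, where 17.4% and 14.3% of all probe sets were (31.7% in all). The groups did not overlap for 13 of 24 genes against water and 10 against SA 0 h, with 44.9% and 37.6% over all probe sets.

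Leaving out water ZT24 3h replicate 2 cut the count against water from 11 to 7. Of the redox partners, 5 of 9 were lower and 2 higher against water 3 h, where 20.5% and 17.7% of all probe sets were. MSRB5 fell, with a difference of -2.10 ± 0.24, MSRB6 at -1.17 ± 0.22 and VTC4 at -1.09 ± 0.12, and MSRB3 rose by 0.48 ± 0.13. Against SA 0 h, 3 of 9 were lower and 1 higher, where 17.4% and 14.3% of all probe sets were. MSRB5 at -0.84, MSRB6 at -1.25 and VTC4 at -0.77 were among the lower, while MSRB3 stood at 0.26 and did not pass. Of the 8 other thioredoxins and ascorbate peroxidases, 4 were lower and 1 higher against water, and 0 lower and 1 higher against SA 0 h. The shares over all probe sets are those just given. The y-type thioredoxin gene TY1 rose by 0.77 ± 0.13 and 0.78 ± 0.13. STZ, the 1 of 6 listed touch and wound markers with a named probe set, was higher by 1.22 ± 0.24 and 2.73 ± 0.24. Its part in the result was not tested.

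**Figure D4:**
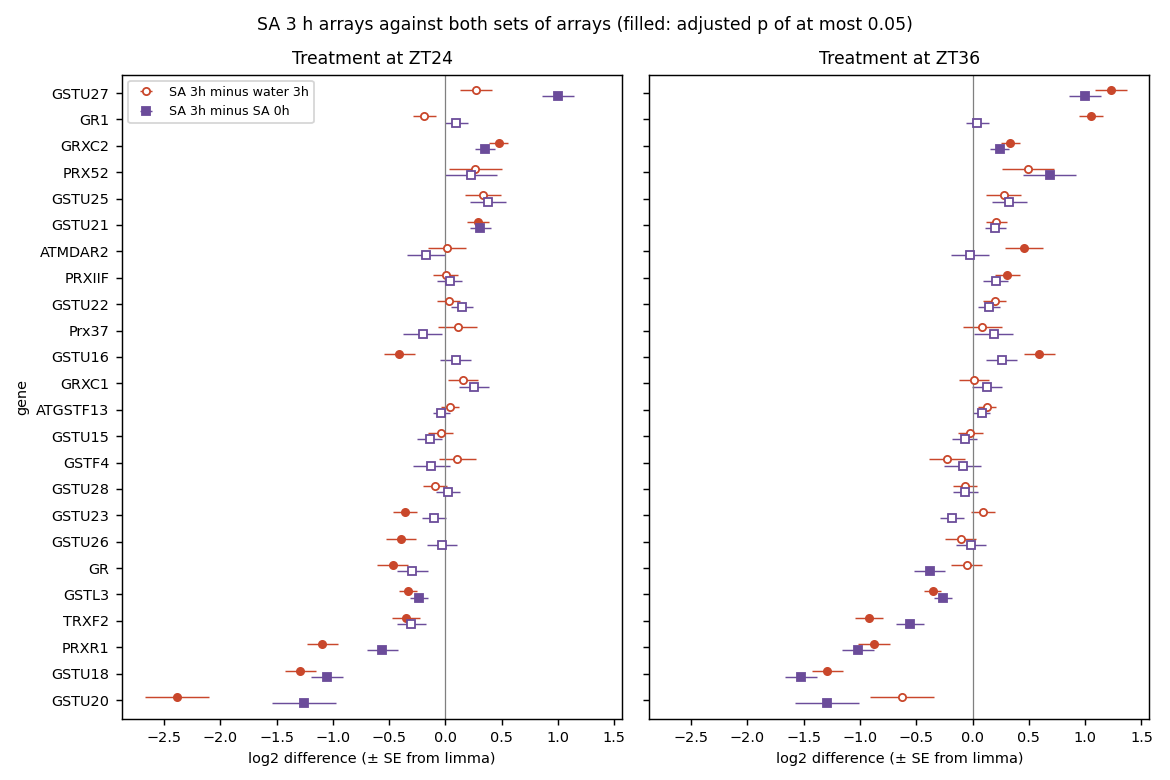
Difference of the SA 3 h arrays from water 3 h (red circles) and from the arrays labelled SA 0 h (purple squares) for each of the 24 genes, at ZT24 (left) and ZT36 (right), as log2 ± SE from limma with 3 arrays per group and filled symbols for an adjusted p of at most 0.05. GR1 at ZT36 has a circle at 1.05 and a square at 0.04, while GSTU18 is below 0 in all 4 comparisons, from -1.52 to -1.05.

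At 3 h after treatment at ZT36, 6 genes were higher and 4 lower in the SA arrays than in water 3 h. GSTU27, GR1 and GSTU16 led the higher genes, and GSTU18, TRXF2 and PRXR1 the lower. That is 6 of 24 higher where 18.5% of all probe sets were and 4 of 24 lower where 21.6% were (40.2% in all), with a median of 0.091 over the 24 genes and -0.02 over all probe sets. Against SA 0 h, 3 were higher and 6 lower, where 13.3% and 16.4% of all probe sets were (29.7% in all). Without overlap were 13 of 24 genes against water and 10 against SA 0 h, with 50.1% and 43.1% over all probe sets. Some differences from water were already present in the SA 0 h arrays of ZT36. GR1 and ATMDAR2 were called higher there by 1.04 and 0.71, and TRXF2 lower, at -0.39. GSTU18 and PRXR1 went the other way there, higher by 0.56 and 0.39.

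GSTU27 stood at 0.56, 0.74 and 0.96 in SA 3 h, -0.31, -0.41 and -0.70 in water 3 h and -0.18, -0.21 and -0.35 in SA 0 h. The SA 3 h arrays were above both, by 1.23 ± 0.14 (adjusted p = 4.9e-07) and 1.00 ± 0.14 (adjusted p = 1.2e-05). GR1 stood at -0.33, -0.32 and -0.51 in SA 3 h and -0.38, -0.35 and -0.56 in SA 0 h, all above the water 3 h arrays given above. It was higher by 1.05 ± 0.10 against water, a 2.07-fold difference (adjusted p = 4.6e-08), and differed by 0.04 ± 0.10 against SA 0 h (adjusted p = 0.85), a difference called after quantile normalization (0.36, adjusted p = 0.015). GSTU16 stood at 0.01, 0.05 and -0.11 in SA 3 h, -0.72, -0.67 and -0.44 in water 3 h and -0.61, -0.03 and -0.19 in SA 0 h. It was higher by 0.59 ± 0.14 against water (adjusted p = 0.0015) and, with SA 0 h as control, the value was 0.26 ± 0.14 (adjusted p = 0.19).

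GSTU18 stood at -1.53, -1.47 and -1.10 in SA 3 h, -0.06, -0.05 and -0.11 in water 3 h and 0.05, 0.06 and 0.36 in SA 0 h. Its falls were -1.29 ± 0.14 against water (adjusted p = 1.7e-07) and -1.52 ± 0.14 against SA 0 h (adjusted p = 3.6e-08), the latter a 2.88-fold difference. TRXF2 stood at -1.51, -1.38 and -0.96 in SA 3 h, -0.26, -0.27 and -0.56 in water 3 h and -0.66, -0.80 and -0.71 in SA 0 h. It was lower, at -0.92 ± 0.13 (adjusted p = 3.9e-06) and -0.56 ± 0.13 (adjusted p = 0.0015), and after quantile normalization the first was -0.60 and the second turned to 0.096 (adjusted p = 0.61). PRXR1 was lower, at -0.88 ± 0.14 and -1.02 ± 0.14 (adjusted p = 2.4e-05 and 6.8e-06). GSTU20 stood at -0.63 ± 0.28 against water 3 h (adjusted p = 0.089) and fell, with a difference of -1.29 ± 0.28 against SA 0 h (adjusted p = 0.0012).

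GRXC2 rose by 0.34 ± 0.09 against water (adjusted p = 0.0035) and by 0.24 ± 0.09 against SA 0 h (adjusted p = 0.043). The GRXC2 call against SA 0 h was lost without replicate 1 (0.11) or 3 (0.13) of SA ZT36 0h or replicate 1 (0.22) or 3 (0.10) of SA ZT36 3h, and after quantile normalization (0.15) or with a trended and robust prior (0.066) or in a fit of the compared arrays alone (0.082). GSTL3 was lower, at -0.36 ± 0.08 and -0.26 ± 0.08. The GSTL3 call against SA 0 h was lost without replicate 2 (0.073) of SA ZT36 0h or replicate 2 (0.071) of SA ZT36 3h, and after quantile normalization (0.066). ATMDAR2 was higher by 0.46 ± 0.17 against water (adjusted p = 0.032) and differed by -0.02 ± 0.17 against SA 0 h. The ATMDAR2 call against water was lost without replicate 1 (0.10) or 3 (0.068) of SA ZT36 3h or replicate 1 (0.058) or 2 (0.066) or 3 (0.082) of water ZT36 3h, and after quantile normalization (0.22). PRXIIF was higher by 0.31 ± 0.11 (adjusted p = 0.029), with 0.20 ± 0.11 against SA 0 h. The PRXIIF call against water was lost without replicate 1 (0.12) of SA ZT36 3h or replicate 1 (0.092) or 3 (0.15) of water ZT36 3h, and in a fit of the compared arrays alone (0.052).

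GR differed by -0.05 ± 0.14 against water (adjusted p = 0.83) and was lower, at -0.38 ± 0.14 against SA 0 h (adjusted p = 0.041). The GR call against SA 0 h was lost without replicate 1 (0.089) or 2 (0.10) or 3 (0.076) of SA ZT36 0h or replicate 2 (0.10) or 3 (0.16) of SA ZT36 3h, and after quantile normalization (0.64). PRX52 (AT5G05340) was called against SA 0 h at 0.69 ± 0.23 (adjusted p = 0.031), with SA ZT36 3h arrays at 1.31, 0.39 and -0.24, which overlap those of SA 0 h. The PRX52 call against SA 0 h was lost without replicate 1 (0.066) or 2 (0.057) or 3 (0.088) of SA ZT36 0h or replicate 1 (0.28) or 2 (0.053) of SA ZT36 3h, and in a fit of the compared arrays alone (0.16). Without replicate 1 of SA ZT36 3h, its difference was 0.28, and without replicate 3 it was 1.05. GSTU25 and GSTU22, which were not called, also had their highest SA ZT36 3 h value in replicate 1 (0.43 and 0.39).

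Of the redox partners at ZT36, 5 of 9 were lower and 1 higher against water 3 h, where 21.6% and 18.5% of all probe sets were. Against SA 0 h, 5 were lower and 1 higher, where 16.4% and 13.3% were. MSRB6 was lower, at -1.87 ± 0.22 and -1.20 ± 0.22, MSRB5 at -1.08 ± 0.24 and -1.31 ± 0.24, and MSRA5 higher by 0.67 ± 0.12 and 0.40 ± 0.12. MSRB3, higher than water 3 h at ZT24, was lower than water 3 h here, at -0.35 ± 0.13 (adjusted p = 0.037). Of the 8 other thioredoxins and ascorbate peroxidases, 2 were lower and 0 higher against water 3 h, and 4 lower and 0 higher against SA 0 h. TY1 was thus not called higher here. The shares over all probe sets are those just given. The leaf markers LHCB4.2 and LHCB4.1 were lower, at -1.04 ± 0.12 and -0.40 ± 0.08 against water 3 h, RCA differed by 0.10 ± 0.08 and STZ was higher by 2.596. FMA, the 1 of 6 listed guard cell markers with a named probe set, was lower, at -0.48 ± 0.11 here and at -0.44 ± 0.11 at ZT24. Of the listed root, vascular or seed and pollen markers, 0 had a named probe set. The part of these markers in the result was not tested.

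**Figure D5:**
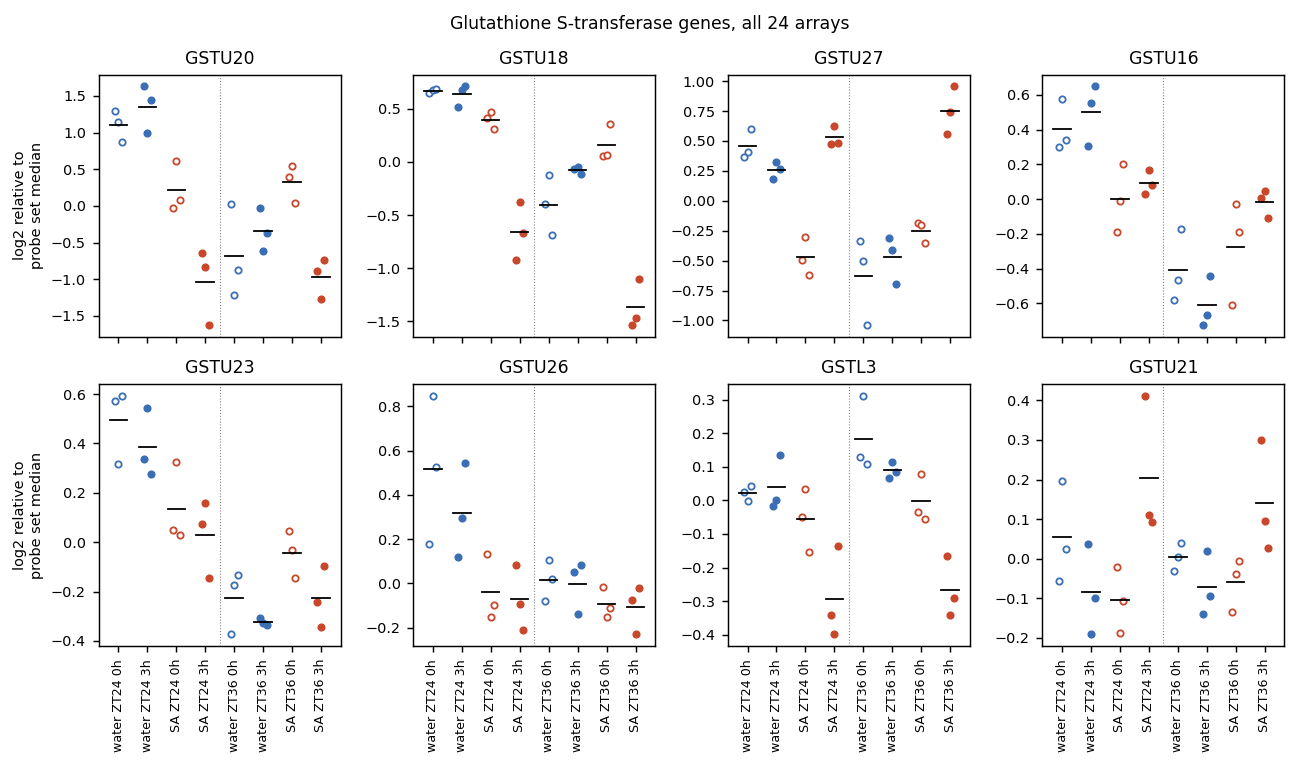
Centred log2 expression of 8 glutathione S-transferase genes in all 24 arrays, by group, with vertical scales set per gene. Points are arrays (blue water, red SA, open 0 h, filled 3 h), bars are means of 3, and the dotted line parts ZT24 from ZT36. GSTU18 is lowest in the SA 3 h arrays at both times, with means of -0.66 and -1.37, and GSTU27 highest there, with means of 0.53 and 0.75.

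The SA comparisons at the 2 times share no array and can be set against each other. An effect here is a difference between these sets of arrays, and the SA 0 h arrays already differed from water 0 h. Against water 3 h, 6 genes were called at both times, 5 of them with the same sign, which is 45.5% of the calls at ZT24 and 50% of those at ZT36, against 61.4% and 58.3% over all probe sets. These were GSTU18, GSTL3, PRXR1 and TRXF2, which were lower, and GRXC2, which was higher, while GSTU16 was lower at ZT24 and higher at ZT36. Against SA 0 h, 6 genes were called at both times, all with the same sign, which is 85.7% of the calls at ZT24 and 66.7% of those at ZT36, against 72% and 76.8% over all probe sets. GSTU18, GSTU20, GSTL3 and PRXR1 were lower and GSTU27 and GRXC2 higher.

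Tested as a difference of effects with water 3 h as control (ZT24 minus ZT36), 6 of 24 genes passed, where 20.7% of all probe sets did, with 5 lower (10.3% of all) and 1 higher (10.4%). GR1 differed by -1.24 ± 0.15 (adjusted p = 4.8e-06), GSTU20 by -1.76 ± 0.40 (adjusted p = 0.0033), GSTU16 by -1.002 ± 0.20 (adjusted p = 0.00093) and GSTU27 by -0.95 ± 0.20 (adjusted p = 0.0018). With SA 0 h as control, 0 of 24 genes passed limma's test, with 2 at an unadjusted p under 0.05, where 0.598% of all probe sets passed. GR1 then differed by 0.06 ± 0.15, GSTU20 by 0.04 ± 0.40, GSTU16 by -0.17 ± 0.20 and GSTU27 by 0.00 ± 0.20, and these values are not a test that the effects are alike. GSTU23 (-0.45 ± 0.15, adjusted p = 0.036) and TRXF2 (0.57 ± 0.18, adjusted p = 0.026) also passed with water 3 h as control. The GSTU23 call was lost without replicate 3 (0.11) of SA ZT24 3h or replicate 1 (0.054) or 3 (0.10) of SA ZT36 3h or replicate 2 (0.10) of water ZT24 3h or replicate 1 (0.054) or 2 (0.063) or 3 (0.069) of water ZT36 3h. The TRXF2 call was lost without replicate 3 (0.074) of SA ZT24 3h or replicate 1 (0.079) or 2 (0.067) of SA ZT36 3h or replicate 1 (0.072) of water ZT24 3h or replicate 1 (0.062) or 2 (0.065) of water ZT36 3h, and after quantile normalization (0.86) or in a fit of the compared arrays alone (0.063). After quantile normalization GR was called as well (-0.74, adjusted p = 0.0015, from -0.42 ± 0.20), with 6 genes lower and 0 higher.

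With SA 0 h as control, TRXF2 stood at 0.26 ± 0.18, and after quantile normalization at -0.67 (adjusted p = 0.016), the only call of a member under any of the alternatives for that difference.

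The arrays labelled SA 0 h were themselves compared with water 0 h. At ZT24, 5 of 24 genes were lower and 0 higher, where 7.95% and 8.26% of all probe sets were (16.2% in all). At ZT36, 6 were higher and 2 lower, where 15.1% and 13.9% were (29% in all). The groups did not overlap for 8 and 10 of 24 genes, with 31.9% and 40.7% over all probe sets. GR1 was lower, at -0.32 ± 0.10 at ZT24 and higher by 1.04 ± 0.10 at ZT36 (adjusted p = 0.039 and 4.1e-07), with a difference between the times of -1.36 ± 0.15 (adjusted p = 8.5e-07). That difference passed for 8 of 24 genes, with 8 lower and 0 higher, where 13.7% of all probe sets were lower and 12.5% higher (26.2% in all). GSTU20 was lower, at -0.88 ± 0.28 at ZT24 and higher by 1.02 ± 0.28 at ZT36. GSTU27 was lower, at -0.93 ± 0.14 at ZT24 (adjusted p = 0.00012) and stood at 0.38 ± 0.14 at ZT36. At ZT24, GSTU26 and GSTU23 were lower, at -0.56 ± 0.13 and -0.36 ± 0.11. At ZT36, ATMDAR2 was higher by 0.71 ± 0.17, GR by 0.65 ± 0.14, GSTU18 by 0.56 ± 0.14 and PRXR1 by 0.39 ± 0.14, while GRXC1 was lower, at -0.44 ± 0.13 and TRXF2 at -0.39 ± 0.13. The GR1 call at ZT24 was lost without replicate 1 (0.16) or 2 (0.098) of SA ZT24 0h or replicate 1 (0.056) or 2 (0.12) or 3 (0.099) of water ZT24 0h, and with a trended and robust prior (0.068) or with array weights (0.055) or in a fit of the compared arrays alone (0.072). The GSTU20 call at ZT24 was lost without replicate 1 (0.13) or 3 (0.12) of SA ZT24 0h or replicate 1 (0.12) or 2 (0.098) of water ZT24 0h, and with a trended and robust prior (0.053). The GSTU20 call at ZT36 was lost without replicate 2 (0.070) of water ZT36 0h. The GSTU26 call at ZT24 was lost without replicate 2 (0.055) of water ZT24 0h, and in a fit of the compared arrays alone (0.059). The GSTU23 call at ZT24 was lost without replicate 1 (0.084) or 3 (0.10) of SA ZT24 0h or replicate 1 (0.085) or 3 (0.10) of water ZT24 0h, and in a fit of the compared arrays alone (0.080). The PRXR1 call at ZT36 was lost without replicate 2 (0.24) of SA ZT36 0h or replicate 2 (0.17) or 3 (0.12) of water ZT36 0h, and with a trended and robust prior (0.054) or in a fit of the compared arrays alone (0.12). The GRXC1 call at ZT36 was lost without replicate 1 (0.11) of SA ZT36 0h or replicate 2 (0.077) or 3 (0.083) of water ZT36 0h, and after quantile normalization (0.063) or in a fit of the compared arrays alone (0.074). The TRXF2 call at ZT36 was lost without replicate 2 (0.084) or 3 (0.051) of SA ZT36 0h or replicate 1 (0.072) or 2 (0.086) of water ZT36 0h. After quantile normalization the ZT36 differences were 0.58 for GR1, 0.37 for GR and -0.77 for TRXF2, and the difference between the times was -0.89 for GR1. TRXF2 was then called higher in the difference between the times (0.90, adjusted p = 0.00022, from 0.41 ± 0.18) and GSTU16 was no longer called, so that 7 genes were lower and 1 higher. The ZT24 count was 2 without water ZT24 0h replicate 1 or 2, and 3 without SA ZT24 0h replicate 1 or water ZT24 0h replicate 3, and the ZT36 count was 4 without water ZT36 0h replicate 2.

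Between the times within the SA 3 h arrays, 5 of 24 genes were higher at ZT24 and 2 lower, where 11.6% and 16.3% of all probe sets were (28% in all), and 8 of 24 did not overlap, with 38.8% over all. TRXF2 was higher at ZT24 by 1.61 ± 0.13 (adjusted p = 5.6e-09), GR1 by 0.95 ± 0.10, GR by 0.93 ± 0.14, GSTU18 by 0.71 ± 0.14 and GSTU28 by 0.41 ± 0.11. All 7 were called with the same sign in water 0 h, where 12 were called and no array is shared. Over all probe sets, 48.3% of those called in SA 3 h were called with the same sign in water 0 h. The 5 called there and not here were GSTU20 (-0.07 ± 0.28), GSTU27 (-0.22 ± 0.14), GSTU16 (0.11 ± 0.14), GSTU23 (0.26 ± 0.11) and GSTU26 (0.04 ± 0.13), all of the tau class. Against the water 3 h arrays, the difference of effects given above is the test of that change, and it passed for GSTU20, GSTU27, GSTU16 and GSTU23 and did not for GSTU26 (-0.29 ± 0.19, adjusted p = 0.35). GRXC1 was lower, at -0.47 ± 0.13 and GRXC2 at -0.26 ± 0.09. The GSTU28 call was lost after quantile normalization (0.071). The GRXC1 call was lost without replicate 1 (0.067) of SA ZT24 3h, and after quantile normalization (0.081). The GRXC2 call was lost without replicate 1 (0.063) or 2 (0.054) or 3 (0.076) of SA ZT24 3h or replicate 1 (0.16) or 3 (0.081) of SA ZT36 3h, and after quantile normalization (0.13) or in a fit of the compared arrays alone (0.095).

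In the arrays labelled SA 0 h, 4 genes were higher at ZT24 and 3 lower, where 9.82% and 14.6% of all probe sets were (24.5% in all), and 9 of 24 did not overlap, with 39.2% over all. TRXF2 was higher by 1.35 ± 0.13, GR1 by 0.90 ± 0.10, GR by 0.84 ± 0.14 and GSTU28 by 0.32 ± 0.11, while GRXC1, PRXR1 and GRXC2 were lower, at -0.59 ± 0.13, -0.48 ± 0.14 and -0.37 ± 0.09. The GSTU28 call was lost without replicate 1 (0.13) or 3 (0.11) of SA ZT24 0h or replicate 1 (0.068) or 2 (0.061) or 3 (0.11) of SA ZT36 0h, and in a fit of the compared arrays alone (0.052). The PRXR1 call was lost without replicate 1 (0.099) of SA ZT24 0h or replicate 2 (0.11) of SA ZT36 0h, and in a fit of the compared arrays alone (0.057). In order of group mean, GR1 stood at 0.79 and 0.75 in water ZT24 at 0 h and 3 h, at 0.56 and 0.47 in SA ZT24 at 3 h and 0 h, at -0.39 and -0.43 in SA ZT36, and at -1.44 and -1.47 in water ZT36. At neither time did the 0 h and 3 h arrays of one treatment pass as different for this gene in the main fit. After quantile normalization, the SA arrays of ZT36 did, as given above.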

How the data were processed

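True leaves of Arabidopsis were profiled on 24 Affymetrix arrays, 3 in each of 8 groups. The authors deposited log2 values made with RMA, per the submitters' processing notes, with no version named, and the file shows them centred on the median of each probe set over all arrays. RMA works in base 2, which the sources used here do not state for these values. The array medians lay between -0.035 and 0.033. From 22810 probe sets, 64 control probe sets were left out and 22746 tested. Symbols came from the platform's probe-to-gene table (13513 probe sets with 1 symbol, matched without regard to case), and loci and neighbours from RefSeq's gene table (TAIR10.1), where 24 of 24 matched.

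One limma fit (limma 3.58.1, R 4.3.3) on the 8 groups with eBayes gave all contrasts, with Benjamini-Hochberg adjustment over all probe sets and a threshold of 0.05. Figures were drawn with Python 3.11.15 and matplotlib 3.10.9. In simulated data for SA against water at ZT36 3 h, with 200 changed of 22746 probe sets, 64% of changes of 0.5 and 96% of changes of 1 were called. The real comparison called 40.2% of probe sets, and the adjustment depends on that share, so these rates do not give the power of the reported test. The genes and lists were chosen with earlier results of these data known. Every gene of the set could be named, and per comparison the 5 largest called rises and falls (3 for differences of effects) with GR1 and GR were, along with up to 4 called genes of each other list. The 8 thioredoxins and ascorbate peroxidases under other symbols were listed after the files were seen, through RefSeq synonyms. A filter on low means was not possible with centred values. Promoter sequences were not used here. Alternatives were quantile normalization, median centring, a trended and robust prior, array weights, a replicate block, a fit of the compared arrays alone, leaving out single arrays, a filter on low SD and leaving out the class III peroxidases, the last 2 chosen after seeing the data. Quantile normalization was run on the centred values and gave all arrays the same spread, so arrays that differ more from the medians are rescaled. Calls gained, lost or reversed under it carry that limit.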

Additional observations from a re-analysis of the deposited data

Results flagged for a closer look

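The difference between the SA 3 h and water 3 h arrays differed between ZT24 and ZT36 for 6 of 24 genes, where 20.7% of all probe sets passed. This was a test of the difference itself (limma, adjusted over all probe sets, 3 arrays per group). The differences, ZT24 minus ZT36 on the log2 scale, were -1.002 for GSTU16, -1.76 for GSTU20, -0.45 for GSTU23, -0.95 for GSTU27, -1.24 for GR1 and 0.57 for TRXF2. With the arrays labelled SA 0 h as control, 0 of 24 passed, where 0.598% of all probe sets did.

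The difference between the arrays labelled SA 0 h and water 0 h also differed between the times, for 8 of 24 genes, where 26.2% of all probe sets passed. The values were -1.90 ± 0.40 for GSTU20, -1.36 ± 0.15 for GR1, -1.31 ± 0.20 for GSTU27, -0.96 ± 0.20 for GR and -0.83 ± 0.20 for GSTU18. Those of PRXR1, GSTU23 and GSTU16 were -0.74 ± 0.20, -0.54 ± 0.15 and -0.53 ± 0.20, the last with adjusted p = 0.04996. After quantile normalization, GR1 stood at -0.89 and GR at -0.61, and TRXF2 was called higher at 0.90. The GSTU16 call was lost without replicate 1 (0.13) or 2 (0.080) of SA ZT24 0h or replicate 2 (0.15) or 3 (0.10) of SA ZT36 0h or replicate 2 (0.13) or 3 (0.061) of water ZT24 0h or replicate 1 (0.12) or 2 (0.094) of water ZT36 0h, and after quantile normalization (0.26) or with array weights (0.053) or in a fit of the compared arrays alone (0.11), with the adjusted p in parentheses. What sets these 0 h arrays apart was not tested.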

How the results depend on the processing

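Of 228 counts of called genes recomputed under the alternatives, 216 stayed within 1.5 times the reported count. Of 5082 values of single genes, 4872 kept their side of the threshold, 144 lost a call, 64 gained one and 2 reversed. A reversal is a change of sign with a call in at least 1 of the 2 fits. Changes of sign without any call are among the 4872. The 5082 include values not called as reported, which cannot lose a call. The reversals were of TRXF2 after quantile normalization, to 0.096 for SA 3 h against SA 0 h at ZT36 and to -0.67 for the difference of SA effects with SA 0 h as control. After quantile normalization that difference had 1 call in place of 0, and ZT24 against ZT36 in SA 3 h had 4 in place of 7. For all probe sets, the share of higher calls in that difference moved from 67.6% to 53.3%. With array weights, water 3 h against 0 h at ZT36 had 2 calls, GR and GRXC1. With only the arrays compared in the fit, SA 3 h against SA 0 h at ZT24 had 4 calls in place of 7 and SA against water at ZT24 0 h 2 in place of 5. With each array left out in turn, SA against water ranged over 2 to 4 calls at ZT24 0 h, 7 to 12 at ZT24 3 h and 4 to 8 at ZT36 0 h, and water 3 h against 0 h at ZT36 over 0 to 1. SA 3 h against SA 0 h at ZT36 ranged over 6 to 7, below the reported 9 in every case. After quantile normalization it had 3 higher and 3 lower, in place of 3 higher and 6 lower. Without the 3 class III peroxidases, the 3 h counts against water were 10 at ZT24 and 9 at ZT36, and against SA 0 h 6 and 7. A replicate block on runs of 8 title numbers gave 12, 11, 11 and 10 calls for the times in water at 0 h and 3 h and for SA against water at ZT24 and ZT36 3 h, and moved no count by over 1.5 times. Deviations from the group means had a mean r of 0.053 between arrays of one run (from -0.36 to 0.45), against -0.026 for other runs. Deviations within a group cancel out, so these 2 means are not independent. They do not decide whether the title numbers pair the samples. The filter on low means was not run, since the values are centred. The cause of these changes was not tested, and signal over background is unknown.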
